A study of Homo sapiens with 12 samples.

Results

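The Hippo pathway and the genes controlled by its effectors YAP1 and TEAD were measured across 12 RNA sequencing libraries as a set of 40 genes, chosen by symbol. The set comprised 20 Hippo kinases and factors and 20 target genes, out of 40929 gene symbols in the count tables. All 40 symbols were found, and 39 were among the 15104 genes that passed the filter on low counts. AMOT, a scaffold of the angiomotin family, did not pass, with 0 to 8 counts in a library.

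The cells were MDA-MB-231, an established human line of triple-negative breast cancer, labelled as epithelial and wild type. They were grown in RPMI medium with 10% fetal bovine serum and kept for 48 h in 4 conditions of 3 libraries each. LGCAR stands for 5 mM glucose with 25 µM cariporide, LG for 5 mM glucose without the drug, CAR for 10 mM glucose with 25 µM cariporide, and NG for 10 mM glucose without the drug. Cariporide inhibits the sodium-proton exchanger NHE1. As background, this line is known to carry an inactivating mutation of NF2, one of the members, so the pathway is studied here in cells with a damaged upstream component.

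In the Hippo pathway, the kinases STK3 and STK4, with their scaffold SAV1, activate LATS1 and LATS2, which work with MOB1A or MOB1B. The LATS kinases phosphorylate the coactivators YAP1 and WWTR1 (TAZ) and keep them out of the nucleus. NF2, WWC1, FRMD6, TAOK1 and MAP4K4 act upstream of LATS. Unphosphorylated YAP1 and WWTR1 enter the nucleus and bind TEAD1 to TEAD4, and VGLL4 competes with them for TEAD. Classical targets include CCN1, CCN2 and ANKRD1, and some targets such as LATS2, AMOTL2 and PTPN14 restrain YAP1 in turn. Much of this regulation acts on phosphorylation and location, which messenger RNA counts do not show.

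Library totals ran from 18069004 to 24837409 counts, and the share of cytosolic ribosomal RNA from 7.10% to 11.5%. Every LGCAR library (9.32% to 11.5%) had a higher share than every LG (7.91% to 9.06%) and CAR (7.10% to 8.53%) library. NG (7.83% to 11.2%) overlapped each of them. In LGCAR against LG and in LGCAR against CAR, share and condition therefore cannot be told apart. Breast line markers VIM, CD44, KRT8 and KRT18 were each above 331 CPM (counts relative to the scaled size of the library) in every library. ESR1 stayed at or below 0.188 CPM and PGR at 0, while ERBB2 ran from 55.3 to 67.0 CPM. Of the epithelial markers, EPCAM ran from 8.74 to 13.8 CPM, and the cadherin CDH1 had at most 2.47 CPM and so was near 0. PTPRC and CD3E, markers of immune cells, had at most 0.335 and 0 CPM. Other markers were not all near 0. The luminal marker GATA3 ran from 9.52 to 13.8 CPM. Of the fibroblast markers, COL1A1 ran from 6.55 to 9.49 CPM and DCN had at most 0.0837 CPM. Of the endothelial markers, PECAM1 ran from 1.41 to 2.47 CPM and VWF had at most 0.332 CPM. In bulk RNA, a smaller share of cells with a transcript and less of it per cell cannot be told apart. No source used here states whether libraries of one condition were separate cultures, and p-values may therefore reflect technical spread.

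TEAD factors bind the letters GGAATG, which were searched on both strands together with the AP-1 letters TGANTCA in windows from 250 bases before to 50 bases after each RefSeq start (GRCh38.p14). Of the 40 members 32 had such a window, and TEAD1, TEAD4, STK3, CRIM1, ASAP1, CCN1, ARHGEF17 and DLC1 had none. GGAATG was found for 8 of 15 targets with a window (AJUBA, AMOTL2, ANKRD1, AXL, CCN2, NUAK2, PTPN14 and TGFB2) and for 2 of 17 kinases and factors (LATS2 and YAP1). By gene it was found for 16.7% of 27305 genes, and by window for 44.4% of 18 target windows, 7.14% of 28 kinase and factor windows and 14.03% of all 35116 windows. TGANTCA was found for 2 of 15 targets and 2 of 17 kinases and factors, against 9.37% of 27305 genes and 7.71% of all windows. These are matches of letters and not measured binding sites. The 250 bases before the start are printed for CCN2 and ANKRD1, classical targets of the pathway, for NUAK2, the member with the highest log2 fold change in LG, and for IGFBP3, the called member that fell. Capitals mark GGAATG or its reverse complement CATTCC, and in ANKRD1 also the AP-1 letters. CCN2 lies at chr6:131951373-131951622, ANKRD1 at chr10:90921088-90921337, NUAK2 at chr1:205321746-205321995 and IGFBP3 at chr7:45921273-45921522, all on the minus strand and printed in the direction of transcription.
CCN2: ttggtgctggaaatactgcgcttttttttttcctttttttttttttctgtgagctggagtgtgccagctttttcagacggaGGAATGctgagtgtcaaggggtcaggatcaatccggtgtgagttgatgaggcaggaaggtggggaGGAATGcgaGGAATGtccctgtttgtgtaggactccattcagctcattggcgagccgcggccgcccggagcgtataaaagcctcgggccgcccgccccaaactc
ANKRD1: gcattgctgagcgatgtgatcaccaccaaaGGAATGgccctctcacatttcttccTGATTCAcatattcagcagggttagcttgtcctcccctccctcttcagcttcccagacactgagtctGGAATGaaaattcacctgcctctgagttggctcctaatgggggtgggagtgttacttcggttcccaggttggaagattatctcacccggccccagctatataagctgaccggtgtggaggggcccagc
NUAK2: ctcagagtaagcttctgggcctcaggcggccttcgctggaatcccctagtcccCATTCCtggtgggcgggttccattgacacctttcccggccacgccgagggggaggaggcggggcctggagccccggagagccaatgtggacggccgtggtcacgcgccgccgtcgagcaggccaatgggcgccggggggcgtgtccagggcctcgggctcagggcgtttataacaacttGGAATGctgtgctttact
IGFBP3: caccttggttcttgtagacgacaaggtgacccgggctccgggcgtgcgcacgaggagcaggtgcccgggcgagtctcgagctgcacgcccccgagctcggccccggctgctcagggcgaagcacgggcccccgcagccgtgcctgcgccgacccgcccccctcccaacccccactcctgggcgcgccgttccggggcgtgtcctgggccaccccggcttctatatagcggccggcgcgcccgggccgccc
In CCN2 the 3 matches began 169, 104 and 95 bases before the start. ANKRD1 held 2 TEAD matches, at 220 and 128 bases, with the AP-1 letters between them at 195 bases, and the motifs did not overlap. NUAK2 held 1 match on each strand, at 197 and 18 bases. IGFBP3 held neither motif in the window, which says nothing about other sites.

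To compare genes, counts were divided by library size and by exon length (all annotated exons of a gene merged), giving CPM per kb. Targets filled the upper end of this scale: the 9 highest members were all targets. CCN1, a secreted matricellular protein, led with a median of 668 CPM per kb and a range of 625 to 804. ANKRD1, an ankyrin-repeat protein of nucleus and sarcomere, followed at 203 CPM per kb, and F3 (tissue factor) and AXL (a receptor tyrosine kinase) at 166 and 165. The ranges of ANKRD1, F3 and AXL overlapped, so their order was not fixed across libraries. CCN2, a second matricellular protein, had 88.3 CPM per kb.

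Members of the same family stood at different levels. YAP1 had a median of 35.8 CPM per kb and WWTR1 of 7.57, with ranges that did not overlap (31.4 to 40.1 and 6.72 to 8.06). Of the TEAD factors, TEAD1 had 27.5 and TEAD3 had 17.9 CPM per kb, while TEAD2 and TEAD4 had 6.09 and 5.45 with overlapping ranges. STK4 stood above STK3, at 11.66 and 2.498 CPM per kb. LATS2 stood above LATS1, at 9.79 and 5.17. MOB1A stood above MOB1B, at 25.2 and 6.31. NF2, the membrane scaffold merlin, was the lowest tested member at 1.26 CPM per kb. AMOT had 0.0239.

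**Figure D1:**
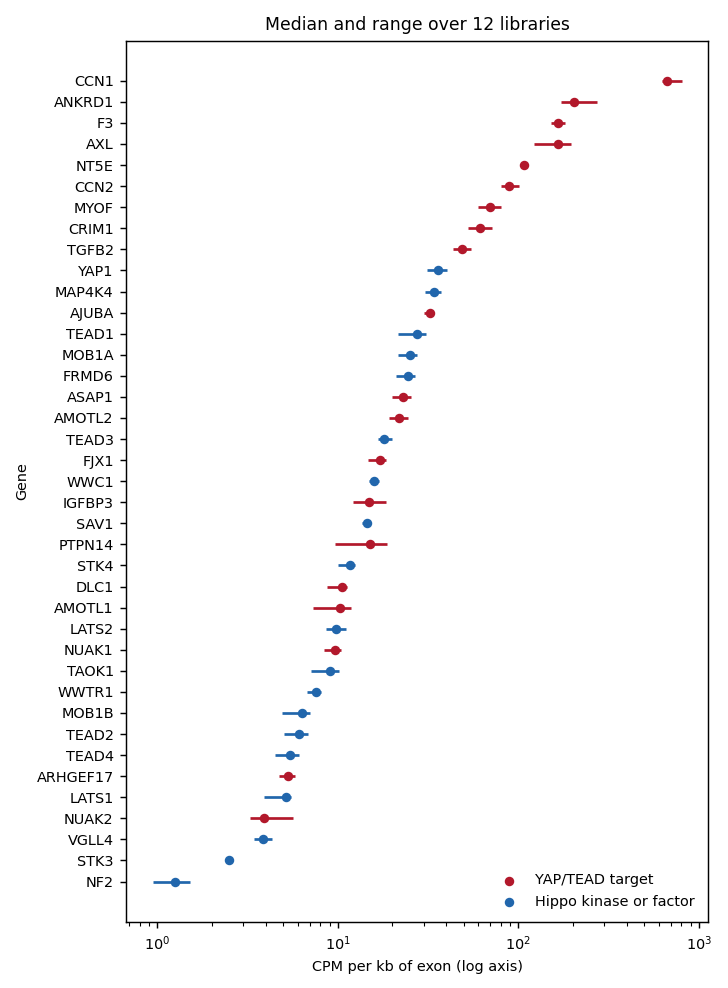
Level of the 39 tested members in CPM per kb of exon, on a log axis, as the median (point) and range (line) over 12 libraries, with targets in red and Hippo kinases and factors in blue. The highest 9 members are targets, led by CCN1 at 668 CPM per kb, and NF2 is lowest at 1.26 CPM per kb.

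Lower glucose alone (LG against NG) called 3 of the 39 members at an adjusted p under 0.05, by edgeR's quasi-likelihood test adjusted over all 15104 genes, where 1.73% of all genes were called. NUAK2 and LATS2 rose and IGFBP3 fell, by up to 0.53 on the log2 scale. The median log2 fold change was 0.13 for the 20 targets, of which 17 were positive, and 0.03 for the 19 tested kinases and factors, of which 11 were positive. Without NG 3 or LG 1 the median of kinases and factors was below 0 (-0.0034 and -0.0061). For all genes tested it was 0.01 with all libraries. In 9 members every LG library was above every NG library, 8 targets and 1 kinase, against 9.86% of all genes. IGFBP3 alone was lower without overlap, against 9.51% of all genes.

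NUAK2, a kinase of the AMPK-related family, had 15.4, 13.5 and 15.3 CPM in LGCAR, 19.4, 14.7 and 17.7 CPM in LG, 11.2, 12.3 and 13.4 CPM in CAR, and 12.1, 12.5 and 11.4 CPM in NG. All LG and LGCAR libraries were above all NG and CAR libraries, but LGCAR 2 (13.48 CPM) only narrowly above CAR 3 (13.42 CPM). Its log2 fold change was 0.53 ± 0.10 in LG against NG (SE, edgeR adjusted p = 0.0123) and 0.30 ± 0.10 in LGCAR against NG (edgeR adjusted p = 0.0752), so it rose in LG and missed the threshold in LGCAR. Leaving out NG 3 ended the LG call, as did leaving out LG 1 (edgeR adjusted p = 0.0800 to 0.0835).

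LATS2, the kinase that phosphorylates YAP1 and is itself a YAP1 target, had 60.8, 55.1 and 60.0 CPM in LGCAR, 62.3, 59.4 and 56.0 CPM in LG, 49.6, 51.0 and 54.1 CPM in CAR, and 52.1, 48.0 and 48.3 CPM in NG. Every library at 5 mM glucose was above every library at 10 mM. LATS2 rose by 0.26 ± 0.06 on the log2 scale in LG (edgeR adjusted p = 0.0354) and by 0.25 ± 0.06 in LGCAR (edgeR adjusted p = 0.0236), both against NG. Leaving out any 1 of NG 2, NG 3, LG 1 and LG 2 ended the LG call, with edgeR adjusted p from 0.121 to 0.169. Leaving out any 1 of NG 2, NG 3, LGCAR 1 and LGCAR 3 ended the LGCAR call, with edgeR adjusted p from 0.0848 to 0.116. LATS1, its paralogue, had 47.8, 47.8 and 46.6 CPM in LGCAR, 46.5, 40.8 and 34.1 CPM in LG, 33.8, 46.0 and 44.5 CPM in CAR, and 44.8, 39.2 and 37.8 CPM in NG. The LGCAR libraries were above the others, by less than 1 CPM over LG 1, while LG, CAR and NG overlapped, with the lowest values in LG 3 and CAR 1. The log2 fold change of LATS1 against NG was 0.22 ± 0.13 in LGCAR (edgeR adjusted p = 0.261) and -0.0028 ± 0.13 in LG (edgeR adjusted p = 0.995).

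IGFBP3, a secreted binding protein of insulin-like growth factors, had 58.3, 59.5 and 55.4 CPM in LGCAR, 60.2, 63.0 and 71.5 CPM in LG, 77.5, 63.8 and 74.3 CPM in CAR, and 83.4, 74.4 and 84.5 CPM in NG. LGCAR lay below LG and LG below NG without overlap, while CAR overlapped both LG and NG. The margin between LGCAR and LG was narrow, with 59.47 CPM in the highest LGCAR library and 60.24 CPM in the lowest LG library. IGFBP3 fell by 0.49 ± 0.08 on the log2 scale in LGCAR (edgeR adjusted p = 0.00396) and by 0.32 ± 0.08 in LG (edgeR adjusted p = 0.0488), both against NG. The LGCAR call held when any 1 of the 6 libraries was left out (edgeR adjusted p = 0.00886 to 0.0294). The LG call was lost when any 1 of the 6 libraries except LG 3 was left out (edgeR adjusted p = 0.0670 to 0.213).

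**Figure D2:**
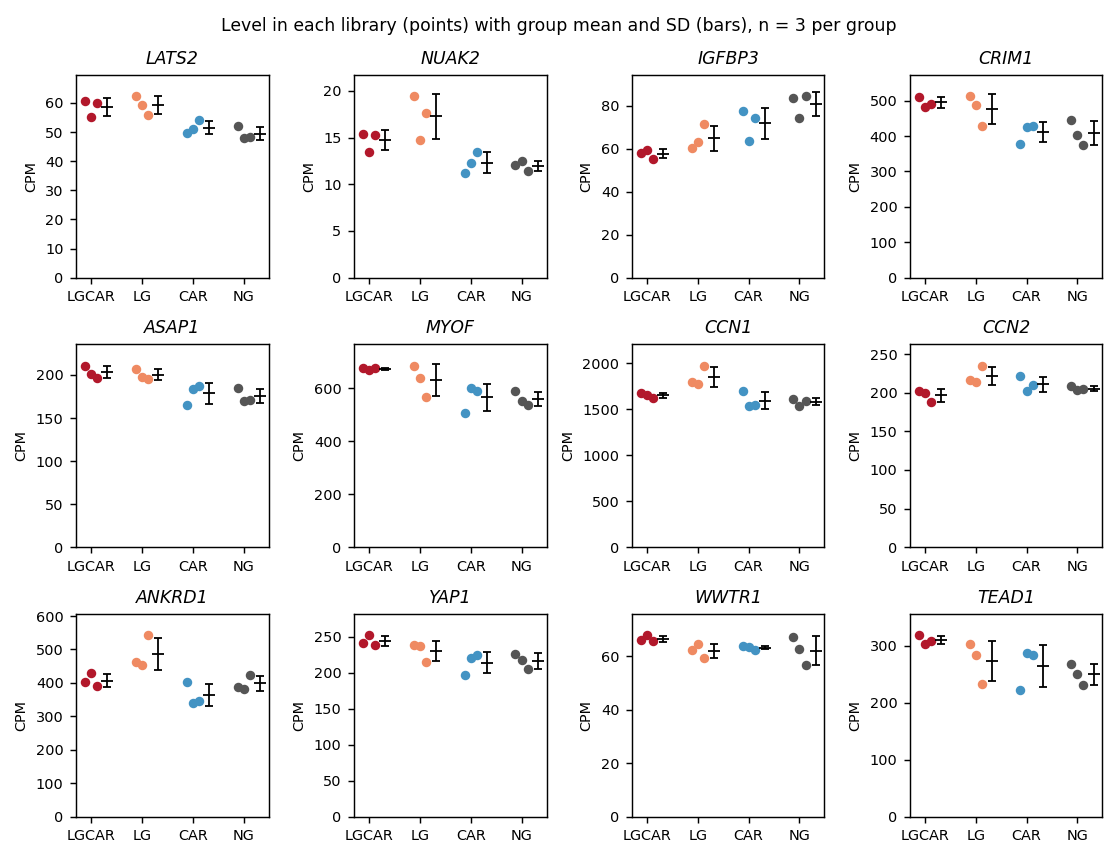
CPM on linear axes from 0 in each library (points, grouped as LGCAR, LG, CAR and NG) with the group mean and SD (bars, n = 3 each) for 12 members. LATS2 and NUAK2 are higher at 5 mM glucose than at 10 mM in every library, IGFBP3 is lowest in LGCAR, and CCN1, CCN2 and ANKRD1 have their highest mean in LG.

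The classical targets CCN1, CCN2 and ANKRD1, and the angiomotin-like scaffold AMOTL2, had their highest mean in LG, and none was called. These 4 were the members in which all LG libraries were above all NG libraries and all LGCAR libraries were below all LG libraries. They were grouped after their values were seen. Taken singly, LG was above NG without overlap in 9.86% of all genes and LGCAR below LG in 10.5%. The share of all genes with both was not counted, so the size of this group cannot be set against it. CCN1 had 1673, 1661 and 1620.1 CPM in LGCAR, 1796, 1773 and 1973 CPM in LG, 1704, 1535 and 1547 CPM in CAR, and 1617, 1541 and 1589.9 CPM in NG. CCN2 had 203, 199 and 187 CPM in LGCAR, 216, 214 and 235 CPM in LG, 221, 202 and 209 CPM in CAR, and 208, 203 and 205 CPM in NG. In both genes LG 3 was the highest library and CAR 1 the highest at 10 mM glucose. ANKRD1 had 402, 429 and 389.8 CPM in LGCAR, 463, 453 and 542 CPM in LG, 402, 341 and 347 CPM in CAR, and 389, 383 and 423 CPM in NG. AMOTL2 had 134, 135 and 129 CPM in LGCAR, 142, 141 and 146 CPM in LG, 115, 116 and 125 CPM in CAR, and 132, 127 and 123 CPM in NG. LG 3 was again the highest library in both.

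For LG against NG the log2 fold change was 0.22 ± 0.06 for CCN1 (edgeR adjusted p = 0.0559), 0.29 ± 0.08 for ANKRD1 (edgeR adjusted p = 0.0661), 0.17 ± 0.05 for AMOTL2 (edgeR adjusted p = 0.0947) and 0.11 ± 0.05 for CCN2 (edgeR adjusted p = 0.316). CCN1 and ANKRD1 therefore lay just outside the threshold. For LGCAR against LG it was -0.16 ± 0.06 for CCN1, -0.26 ± 0.08 for ANKRD1, -0.11 ± 0.05 for AMOTL2 and -0.18 ± 0.05 for CCN2, with edgeR adjusted p of 0.369, 0.341, 0.408 and 0.339. These 2 comparisons share the LG libraries, so a high LG library raises one value and lowers the other. Against NG, LGCAR gave log2 fold changes of 0.06 ± 0.06 for CCN1, 0.03 ± 0.08 for ANKRD1, 0.06 ± 0.05 for AMOTL2 and -0.06 ± 0.05 for CCN2, and none passed the threshold. All LGCAR libraries were above all NG libraries in CCN1 and below them in CCN2, both by a narrow margin. The lowest LGCAR library of CCN1 had 1620.1 CPM and the highest NG library 1617.3 CPM. The highest LGCAR library of CCN2 had 202.77 CPM and the lowest NG library 202.81 CPM.

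Lower glucose with cariporide (LGCAR against NG) called 5 of the 39 members, against 8.75% of all genes. LATS2 and the targets CRIM1, ASAP1 and MYOF rose, against 4.63% of all genes, and IGFBP3 fell, against 4.12%. The median log2 fold change was 0.15 for kinases and factors, with 15 of 19 positive, and 0.12 for targets, with 16 of 20 positive, while it was 0.01 for all genes. Without NG 3 the target median was 0.07. In 20 members, 9 kinases and factors and 11 targets, every LGCAR library was above every NG library, against 20.7% of all genes. In CCN2, F3, IGFBP3 and TEAD3 every LGCAR library was lower, in CCN2 only narrowly, against 17.5% of all genes. LGCAR, LG and CAR were each compared with the same 3 NG libraries.

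CRIM1, a membrane protein that binds bone morphogenetic proteins, had 511, 482 and 491 CPM in LGCAR, 512, 488 and 429.7 CPM in LG, 378, 426 and 428 CPM in CAR, and 445, 404 and 376 CPM in NG. ASAP1, which activates the GTPase of ARF proteins, had 211, 201 and 197 CPM in LGCAR, 207, 197 and 195 CPM in LG, 165, 184 and 187 CPM in CAR, and 185, 170.3 and 171 CPM in NG. MYOF, a ferlin of membrane repair, had 674, 668 and 675 CPM in LGCAR, 684, 639.5 and 566 CPM in LG, 507, 599 and 587 CPM in CAR, and 587, 553 and 537 CPM in NG. In all 3 genes LGCAR was above NG and CAR without overlap, CAR 1 was the lowest or second lowest library, and LG 3 was the lowest of LG. In LGCAR against NG, on the log2 scale, CRIM1 rose by 0.28 ± 0.07 (edgeR adjusted p = 0.0300), ASAP1 by 0.21 ± 0.06 (edgeR adjusted p = 0.0305) and MYOF by 0.27 ± 0.07 (edgeR adjusted p = 0.0314). Each of the 3 calls ended when NG 2, NG 3 or any 1 LGCAR library was left out (edgeR adjusted p = 0.0676 to 0.151). In LG against NG the log2 fold changes were 0.22 ± 0.07, 0.19 ± 0.06 and 0.17 ± 0.07 for CRIM1, ASAP1 and MYOF, and none was called (edgeR adjusted p = 0.140, 0.0984 and 0.251).

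**Figure D3:**
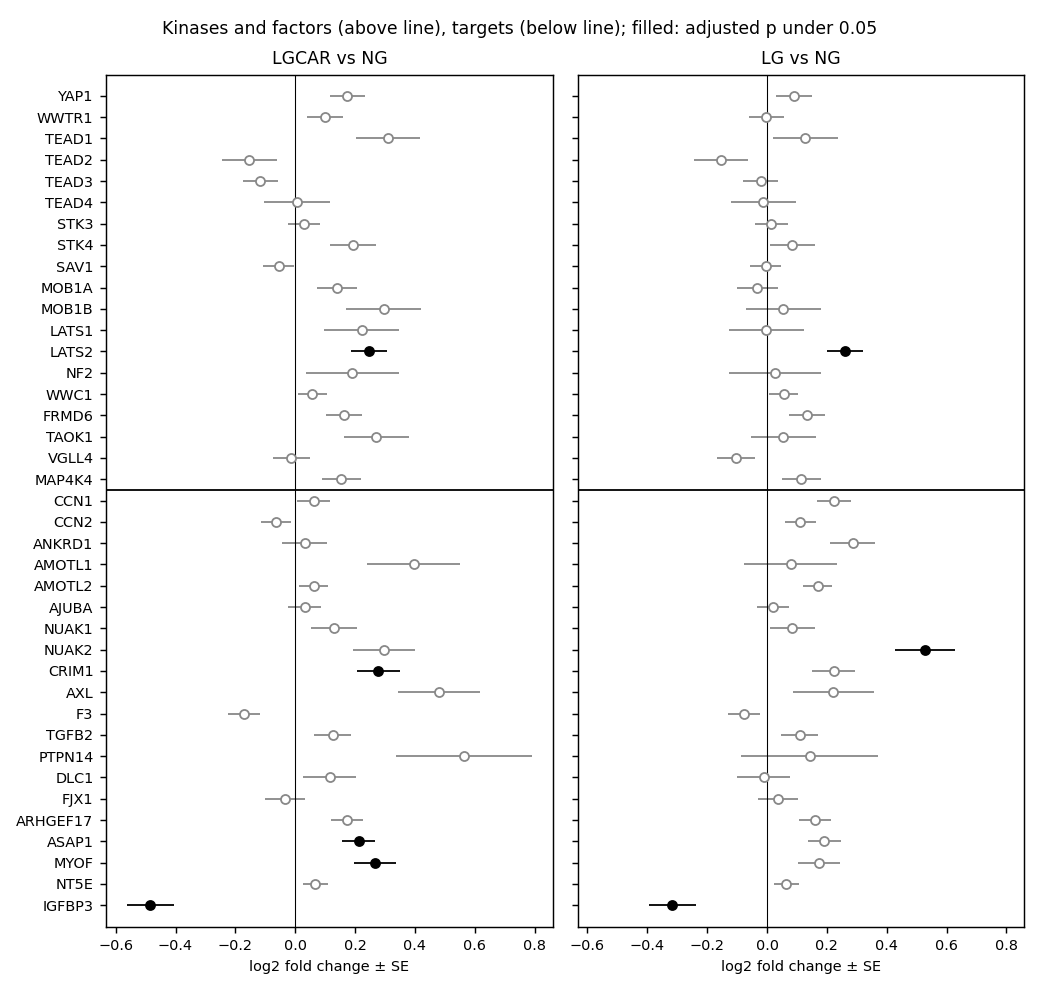
Log2 fold change (points) with its SE (lines) for the 39 tested members in LGCAR against NG (left) and LG against NG (right), with kinases and factors above the line and targets below it, and filled points for edgeR adjusted p under 0.05. IGFBP3 is at -0.49 and -0.32 and LATS2 at 0.25 and 0.26, while NUAK2 is called on the right at 0.53.

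The coactivators and TEAD1 were not called in any comparison. YAP1 had 241, 252 and 239 CPM in LGCAR, 239, 238 and 215 CPM in LG, 197, 221 and 225 CPM in CAR, and 226, 218 and 205 CPM in NG. WWTR1 had 66.1, 67.8 and 65.8 CPM in LGCAR, 62.3, 64.6 and 59.2 CPM in LG, 63.7, 63.6 and 62.5 CPM in CAR, and 67.2, 62.8 and 56.6 CPM in NG. TEAD1 had 318, 303 and 309 CPM in LGCAR, 303, 283 and 233 CPM in LG, 222, 288 and 283 CPM in CAR, and 269, 249.8 and 231 CPM in NG. YAP1 and TEAD1 in LGCAR lay above every other library, but by less than 1 CPM over LG 1 in each, and WWTR1 in LGCAR overlapped NG 1. The log2 fold change in LGCAR against NG was 0.17 ± 0.06 for YAP1 (edgeR adjusted p = 0.0700), 0.10 ± 0.06 for WWTR1 (edgeR adjusted p = 0.283) and 0.31 ± 0.11 for TEAD1 (edgeR adjusted p = 0.0848). The other TEAD genes had log2 fold changes of -0.15 ± 0.09 (TEAD2), -0.12 ± 0.06 (TEAD3) and 0.01 ± 0.11 (TEAD4), so the 4 factors did not share a sign.

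Among the core kinases and their partners, log2 fold changes in LGCAR against NG were 0.19 ± 0.08 for STK4, 0.03 ± 0.05 for STK3, 0.30 ± 0.13 for MOB1B and 0.14 ± 0.07 for MOB1A, none called. STK4 and MOB1B lay above NG without overlap. Upstream, TAOK1 had 0.27 ± 0.11, MAP4K4 0.15 ± 0.07, FRMD6 0.16 ± 0.06 and NF2 0.19 ± 0.16, none called. Of these only NF2 overlapped between the groups. Just outside the threshold stood F3 at -0.17 ± 0.05 (edgeR adjusted p = 0.0526), AXL at 0.48 ± 0.14 (edgeR adjusted p = 0.0533) and ARHGEF17 at 0.17 ± 0.05 (edgeR adjusted p = 0.0549). The remaining members were not called either. They were the kinase scaffold SAV1 (-0.06 ± 0.05), the scaffold WWC1 (0.06 ± 0.05), VGLL4 (-0.01 ± 0.06), the angiomotin-like AMOTL1 (0.40 ± 0.16), the LATS-binding LIM protein AJUBA (0.03 ± 0.05) and the kinase NUAK1 (0.13 ± 0.08). The others were the growth factor TGFB2 (0.12 ± 0.06), DLC1 (0.12 ± 0.09), FJX1 (-0.03 ± 0.07) and NT5E (0.07 ± 0.04), all as log2 fold changes.

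**Figure D4:**
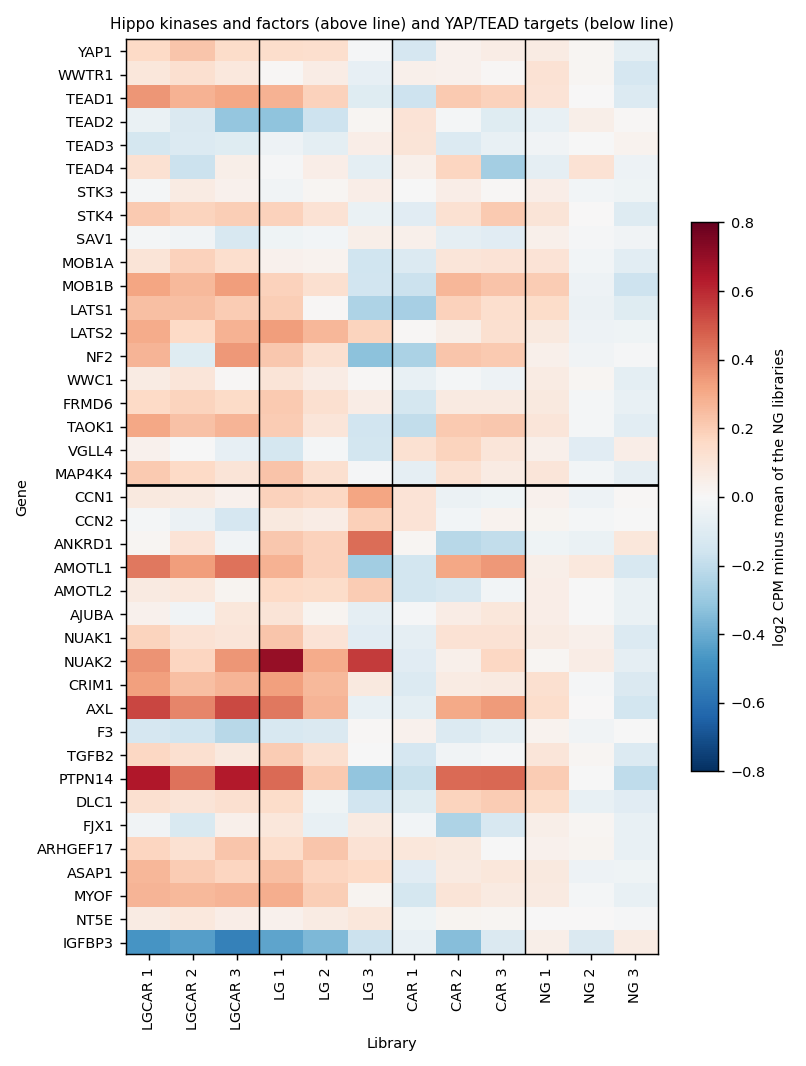
Log2 CPM of the 39 tested members minus the mean of the NG libraries, by library from LGCAR 1 to NG 3, with kinases and factors above the line and targets below it. Red is higher and blue lower than NG, and PTPN14, AXL and AMOTL1 are high in LGCAR and near or below NG in LG 3 and CAR 1.

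Cariporide at 5 mM glucose (LGCAR against LG) called 0 of the 39 members by edgeR's quasi-likelihood test, and 0.00662% of all genes. At an unadjusted p under 0.05 there were 7 members, against 1801 of all 15104 genes, and DESeq2 and limma-voom also called 0. The median log2 fold change was 0.08 for kinases and factors, with 16 of 19 positive, and 0.01 for targets (12 of 20 positive). Without LG 3 the medians were 0.03 and -0.04, with 12 of 19 and 7 of 20 positive, and with the ribosomal RNA share as a covariate 0.0071 and -0.05, with 12 of 19 and 6 of 20 positive. The target median was -0.01 when scaled by library totals alone. In 8 members LGCAR was higher without overlap, 7 of them kinases and factors (LATS1, MOB1A, MOB1B, TAOK1, TEAD1, WWTR1 and YAP1) and the target AMOTL1, against 10.9% of all genes. In 7 members LGCAR was lower without overlap, 6 of them targets (AMOTL2, ANKRD1, CCN1, CCN2, F3 and IGFBP3) and the factor TEAD3, against 10.5% of all genes.

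Cariporide at 10 mM glucose (CAR against NG) called 0 members by edgeR's quasi-likelihood test, and 0% of all genes. At an unadjusted p under 0.05 there were 2, IGFBP3 at -0.17 ± 0.08 and VGLL4 at 0.13 ± 0.06 on the log2 scale, against 684 of all 15104 genes. DESeq2 and limma-voom called 0. VGLL4, the TEAD competitor, was the 1 member above NG without overlap, against 4.44% of all genes, and none was below it, against 4.67%. The median log2 fold change was 0.03 for kinases and factors and 0.02 for targets. Of the exon length of VGLL4, 23.7% overlaps genes on the opposite strand in GENCODE 29, as does 14.9% for SAV1 and 10.7% for TEAD2, and TGFB2 shares 26.6% with a gene on its own strand. These 4 genes are the members with at least 10% overlap. Just below were YAP1 (9.98%), ARHGEF17 (9.75%), WWTR1 (9.45%) and CCN2 (8.34%), all with the opposite strand. Other members overlapped less or not at all. No source used here states whether the counting used the strand, so the values of all the genes named here are uncertain.

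Lower glucose in the presence of the drug (LGCAR against CAR) called 0 members by edgeR's quasi-likelihood test, against 1.65% of all genes. At an unadjusted p under 0.05 there were 14 members, against 2656 of all 15104 genes, DESeq2 called 3 and limma-voom 0. The counts of all genes called by DESeq2 and limma-voom are not given here. IGFBP3 came nearest, with a log2 fold change of -0.32 ± 0.08 (edgeR adjusted p = 0.0535), and was called without CAR 2. CRIM1 had 0.27 ± 0.07 (edgeR adjusted p = 0.0750) and MYOF 0.25 ± 0.07 (edgeR adjusted p = 0.0820). In 17 members LGCAR was higher without overlap, against 13.4% of all genes, and in 3 lower, against 11.9%. The median log2 fold change was 0.11 for kinases and factors and 0.14 for targets, against 0.01 for all genes. For kinases and factors it was 0.05 without CAR 1 and 0.06 when scaled by library totals alone. With the ribosomal RNA share as a covariate it was -0.0048, with 9 of 19 positive. For targets the covariate gave 0.06 and library totals 0.09. Every LGCAR library had a higher share than every CAR library, so the covariate cannot separate share from condition here.

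The interaction, the drug's difference at 5 mM glucose minus that at 10 mM, called 0 members by edgeR's quasi-likelihood test, and 0.00662% of all genes. At an unadjusted p under 0.05 there were 2, CCN2 at -0.21 ± 0.07 and CCN1 at -0.17 ± 0.08 on the log2 scale, both with an edgeR adjusted p of 0.9999, against 473 of all 15104 genes. DESeq2 and limma-voom called 0. A difference in the drug's effect between glucose levels was thus not detected for any member.

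In LG, CAR and NG, but not in LGCAR, many members were lowest in the library with the lowest ribosomal RNA share. LG 3, CAR 1 and NG 3 had the lowest share of their condition, at 7.91%, 7.10% and 7.83%. In 19 of the 39 members the lowest library was LG 3 in LG, CAR 1 in CAR and NG 3 in NG, against 17.4% of all genes tested. These were 10 of 19 kinases and factors and 9 of 20 targets, among them YAP1, TEAD1, LATS1, TAOK1, MAP4K4, CRIM1, MYOF and AMOTL1. In LGCAR the library with the lowest share, LGCAR 1 at 9.32%, was the lowest in 3 of the 39 members and in 0 of 20 targets, against 4914 of 15104 genes. PTPN14, a phosphatase that restrains YAP1, had the widest range, 1.94-fold. It had 352, 305 and 350.3 CPM in LGCAR, 309, 261 and 182 CPM in LG, 199.9, 309 and 310.2 CPM in CAR, and 260.0, 226 and 196 CPM in NG. AXL had 1010.0, 914 and 1005 CPM in LGCAR, 934, 843 and 669 CPM in LG, 659, 861 and 883 CPM in CAR, and 768, 699 and 630.5 CPM in NG. LG 3, CAR 1 and NG 3 were the 3 lowest libraries in both genes and LGCAR 1 the highest, and the genes were chosen after their values were seen. The log2 fold change of PTPN14 in LGCAR against NG was 0.56 ± 0.23 (edgeR adjusted p = 0.145). TEAD2, TEAD3, SAV1, CCN1, CCN2, ANKRD1, F3 and IGFBP3 ran the other way within LG and CAR, with LG 3 and CAR 1 the highest of their condition. At the other end, STK3 varied by 1.07-fold and NT5E, the ecto-nucleotidase CD73, by 1.09-fold over all 12 libraries.

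With LG 3, CAR 1 and NG 3 left out together, an alternative added after seeing the data, 15 members were called in LGCAR against NG, 13 in LG against NG, 4 in CAR against NG, 1 in LGCAR against LG and 6 in LGCAR against CAR. On the log2 scale, the 4 in CAR against NG were AMOTL1 at 0.26 (edgeR adjusted p = 0.00230), ANKRD1 at -0.17 (edgeR adjusted p = 0.0174), TAOK1 at 0.17 (edgeR adjusted p = 0.0326) and FJX1 at -0.22 (edgeR adjusted p = 0.0437). The 1 in LGCAR against LG was ANKRD1 at -0.17 (edgeR adjusted p = 0.0306). With these libraries gone the count of all genes called rose as well, to 2907 in LGCAR against NG, 1117 in LG against NG, 577 in CAR against NG, 44 in LGCAR against LG and 949 in LGCAR against CAR, where all libraries gave 1322, 261, 0, 1 and 249. The part that the ribosomal RNA share plays in the values of the members was not tested beyond its use as a covariate. That fit left 5 members called in LGCAR against NG and 8 in LG against NG. The count of all genes called in that fit is not given here, so the member counts cannot be set against it. Over all fits the count of all genes called ran from 136 to 3542 in LGCAR against NG and from 83 to 1117 in LG against NG. These member counts are therefore not a result about the members alone.

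**Figure D5:**
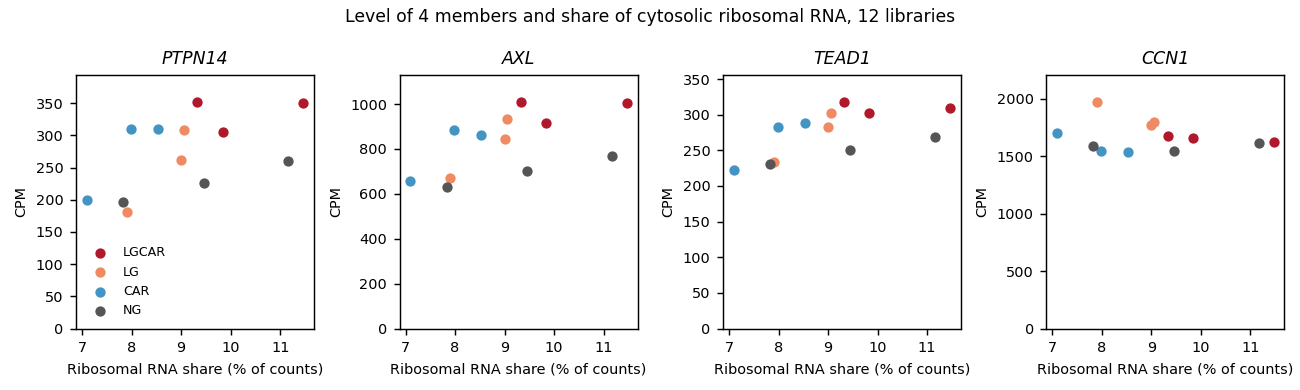
CPM on linear axes from 0 against the share of cytosolic ribosomal RNA in percent of counts for PTPN14, AXL, TEAD1 and CCN1, with 1 point per library coloured by group. In PTPN14, AXL and TEAD1 the libraries with the lowest share of LG, CAR and NG (7.91%, 7.10% and 7.83%) are the lowest of their group, whereas LGCAR 1, with the lowest share of LGCAR (9.32%), is the highest library in each, and in CCN1 LG 3 is the highest library.

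Other genes of the pathway were taken from a list of 42, of which 38 were tested. In LGCAR against NG 6 rose and 0 fell, where 4.63% of all genes were called higher and 4.12% lower, and the median log2 fold change was 0.11. TNIK, a kinase of the family of MAP4K4, rose by 0.42 ± 0.09 (edgeR adjusted p = 0.0112). PATJ, a polarity scaffold, rose by 0.55 ± 0.11 (edgeR adjusted p = 0.0117), and STRN, a subunit of a phosphatase complex that acts on the upstream kinases, by 0.28 ± 0.07 (edgeR adjusted p = 0.0218). PATJ had 30.0, 29.4 and 27.5 CPM in LGCAR and 21.3, 20.3 and 17.8 CPM in NG, without overlap. In LGCAR against CAR the polarity scaffold PALS1 rose by 0.22 ± 0.05 (edgeR adjusted p = 0.0391), the 1 gene of the list called there. In CAR against NG, LG against NG, LGCAR against LG and the interaction edgeR called 0, with 0, 6, 9 and 2 at an unadjusted p under 0.05. In the same order, 684, 2303, 1801 and 473 of all 15104 genes had an unadjusted p under 0.05. DESeq2 and limma-voom counts were not made for the lists.

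A second list held 23 other reported targets, all tested. In LG against NG MYC, a transcription factor of cell growth, rose by 0.26 ± 0.06 on the log2 scale (adjusted p = 0.0398 with edgeR). In LGCAR against NG RBMS3, an RNA-binding protein, rose by 0.30 ± 0.09 (edgeR adjusted p = 0.0470) and DOCK5, an exchange factor of RAC, by 0.48 ± 0.13 (edgeR adjusted p = 0.0483). The medians of the list were -0.04 in LGCAR and 0.06 in LG, both against NG. For genes of both lists, no fit with a library left out was examined.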

How the data were processed

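The deposited counts per gene symbol of 12 MDA-MB-231 libraries were analysed. The labels' protocols name a directional NEBNext Ultra II kit. The submitters' processing notes name GRCh38, STAR, Salmon, fastp and GATK, without roles, and neither the counter nor its strand setting is given in the sources used here. CPM was computed here with TMM scaling. Genes passing filterByExpr with the 4 groups (15104) were tested with edgeR 4.0.16 in R 4.3.3 (quasi-likelihood test, robust, with a mean per group over all 12 libraries). P-values were adjusted per comparison by Benjamini-Hochberg, and an adjusted p under 0.05 was called. The script was tested on simulated data.

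Alternatives were other scalings and filters, ribosomal RNA genes left out, its share as a covariate, libraries left out, the groups alone, DESeq2 1.42.0 and limma-voom (limma 3.58.1).

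Members with a value for each library were YAP1, WWTR1, TEAD1, LATS1, LATS2, CCN1, CCN2 and ANKRD1, every member called, and any said to be chosen after its values were seen. The lists gave up to 3 called genes each, by smallest p; some results of one list are not reported here. Members and lists were chosen with earlier results of these data known. Promoter windows are RefSeq's. Exon lengths and exon overlaps are GENCODE 29's, with all annotated exons of a gene merged. Groups of 3 were not tested for outliers. Figures used matplotlib 3.10.9.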

Additional observations from a re-analysis of the deposited data

How the results depend on the processing

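Depth was 18069004 to 24837409 counts with 3 libraries a condition, and the smallest change called in a member was 0.21 on the log2 scale. No pairing by replicate number was seen. Over 18 pairs of the same number the deviations from group means correlated at -0.11 to 0.14, and 2 pairs were over 0.1. Over 36 pairs of other numbers and conditions they correlated at -0.20 to 0.23. Of 12 libraries 3 correlated best with their own number. With 3 libraries a condition this does not settle whether libraries of the same number were handled together. For LGCAR against NG, 5 members were called; 8 were called with a minimum mean of 5 CPM, 3 with the replicate block, 1 with NG 1 and LGCAR 3 left out, 15 with LG 3, CAR 1 and NG 3 left out, 19 with the groups compared alone and 8 with DESeq2, and 1 to 5 with 1 library left out. For LG against NG, 3 were called; 5 were called with no filter, 1 with the replicate block, 8 with the ribosomal RNA share as a covariate, 0 with NG 1 and LGCAR 3 left out, 13 with LG 3, CAR 1 and NG 3 left out, 1 with the groups alone and 5 with DESeq2, and 0 to 4 with 1 library left out. For LGCAR against CAR, 0 were called; 1 was called with RLE size factors, library totals, no filter, ribosomal RNA genes left out or the groups alone, 3 with DESeq2 and 6 with LG 3, CAR 1 and NG 3 left out, and 0 to 1 with 1 library left out. With LG 3, CAR 1 and NG 3 left out, CAR against NG had 4 and LGCAR against LG had 1, each 0 otherwise and 0 with any 1 library left out. The interaction had 0 in every fit run. The fall of IGFBP3 in LGCAR against NG was the one call kept under all alternatives, including the replicate block. The cause of the other changes was not tested. Counts of all genes called ranged from 136 to 3542 around 1322 in LGCAR against NG and from 83 to 1117 around 261 in LG against NG. In LGCAR against CAR they ranged from 18 to 949 around 249, and in CAR against NG from 0 to 577 around 0. In LGCAR against LG they ranged from 1 to 44 around 1, and in the interaction from 0 to 19 around 1. With 1 library left out they were 136 to 1544 in LGCAR against NG, 83 to 364 in LG against NG and 51 to 188 in LGCAR against CAR. For most fits the count of all genes is given here only within these ranges, so most member counts cannot be set against all genes in the same fit. Counts of members and of all genes both moved with the fit, so a member count of 1 fit is not a result about the members alone.

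The sign turned only in values that were not called with all libraries. On the log2 scale, WWTR1 in LG against NG was 0.0092 with library totals, 0.00033 with a minimum mean of 5 CPM, 0.038 with the ribosomal RNA covariate, 0.046 with NG 1 and LGCAR 3 left out, 0.0016 with limma-voom and -0.066 to 0.050 with 1 library left out (above 0 without NG 1, NG 2 or LG 3). LATS1 in LG against NG was 0.0079 with library totals, 0.076 with the covariate, 0.062 with NG 1 and LGCAR 3 left out, 0.046 with LG 3, CAR 1 and NG 3 left out, and -0.12 to 0.098 with 1 library left out (above 0 without NG 1 or LG 3). ANKRD1 in LGCAR against NG was -0.0061 and -0.011 without NG 2 or LGCAR 2, AMOTL1 in LG against NG ran from -0.032 (without LG 1) to 0.22, and LATS2 in LGCAR against LG from -0.056 to 0.025, above 0 without LG 1 or LGCAR 2. Class medians turned sign too, beside those given above for LG against NG, LGCAR against LG and LGCAR against CAR. In CAR against NG the targets' median was -0.0070 without CAR 3 and that of kinases and factors -9.8e-05 without NG 3. In LGCAR against LG the targets' median was -0.0034 with NG 1 and LGCAR 3 left out, -0.037 with LG 3, CAR 1 and NG 3 left out, -0.0058 without LGCAR 1 and -0.0030 without LGCAR 3. The interaction's medians, 0.03 for kinases and factors and -0.0036 for targets, turned in several fits, over ranges of -0.072 to 0.073 and -0.11 to 0.025.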
